A study of Oryctolagus cuniculus with 8 samples.

Results

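Antioxidant defence genes encode the enzymes that remove superoxide and peroxides, the factor that switches many of these enzymes on, and the enzymes that supply reducing power. Superoxide dismutases turn superoxide into hydrogen peroxide, and catalase, peroxiredoxins and glutathione peroxidases then break down the peroxide. The transcription factor NRF2, encoded by NFE2L2, is held back by KEAP1 and raises the transcription of genes such as NQO1, GCLC, PRDX1, TXN and SRXN1 under oxidative or electrophilic stress. The retina uses much oxygen, receives light and holds membranes rich in polyunsaturated lipids, and oxidative damage is a long-standing theme in work on macular degeneration.

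The set was defined by 10 gene symbols, namely SOD1, SOD2, SOD3, CAT, NFE2L2, NQO1, GCLC, PRDX1, TXN and SRXN1, chosen for their function and looked up by symbol in a table of 25666 genes. Rows with 8 of these symbols were found, 1 row each, and all 8 genes passed the filter on low values used for testing. No row carried the symbols SOD2 or TXN, and these genes were not analysed here. Of 19293 protein-coding rows, 5996 had no symbol.

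Expression was measured by RNA sequencing of 8 dissected retinas from wild-type male Chinchilla rabbits at an age of about 10 months, with 2 retinas per diet. All animals ate their diet for 6 months. The ND group ate standard chow, and the other diets were made by adding to this chow 10% lard and 0.5% cholesterol (HFD), 40% sucrose (HSD), or the lard and cholesterol of the HFD together with sucrose at 35% (HFSD). The study asked whether fat and sucrose act on the retina alone or together. The 4 diets form a layout in which each can be compared with and without the other. Sucrose was added at 40% in HSD but at 35% in HFSD. Differences for fat and the interaction therefore also include this difference in sucrose. The sources used here do not say whether the 2 retinas of a diet came from 2 animals, so p-values measure only the spread between these samples, which may be technical.

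Values are FPKM, in which fragment numbers are divided by gene length and library depth, so levels can be compared between genes. Depths recovered from the steps of the values ran from 15764577 to 22785832 fragments. Rod markers summed to between 28576 and 40436 FPKM. Markers of other tissues were unequal between libraries. HSD replicate 2 held 434 FPKM of skeletal muscle markers, against 2.47 to 4.4 in the other 7 libraries. ND replicate 1 held the most astrocyte, myelin and endothelial marker RNA of the 8 libraries. No member was called with or without either of these libraries.

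No member passed the test in any comparison. With limma on log2(FPKM + 1) and Benjamini-Hochberg adjustment over 12204 genes, 0 of 8 members had an adjusted p under 0.05 in HFD, HSD or HFSD against ND, in the diets with against those without sucrose, in the diets with against those without fat, or in the interaction of fat and sucrose. Weighted regression on recovered fragments (voom) also called 0 members in each. Of all tested genes, the same limma test called 0.00819% in HFD, 0.0574% under HSD, 0.0164% under HFSD, 0.344% for sucrose, 0.00819% for fat and 0.00819% for the interaction. At an unadjusted p under 0.05, 1 of 8 members stood out in HFD (CAT), against 4.31% of all genes, and 1 of 8 for sucrose (SOD3), against 18.3% of all genes. There were 0 such members in HSD, in HFSD, for fat and for the interaction, where the shares of all genes were 7.2%, 8.07%, 3.2% and 3.74%. The result for SOD3 depended on the method. For sucrose, limma with robust moderation of variances and voom each gave 0 lower members and 1 higher member at such a p. Of all 12204 genes, 2215 and 2290 had such a p in these fits.

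**Figure D1:**
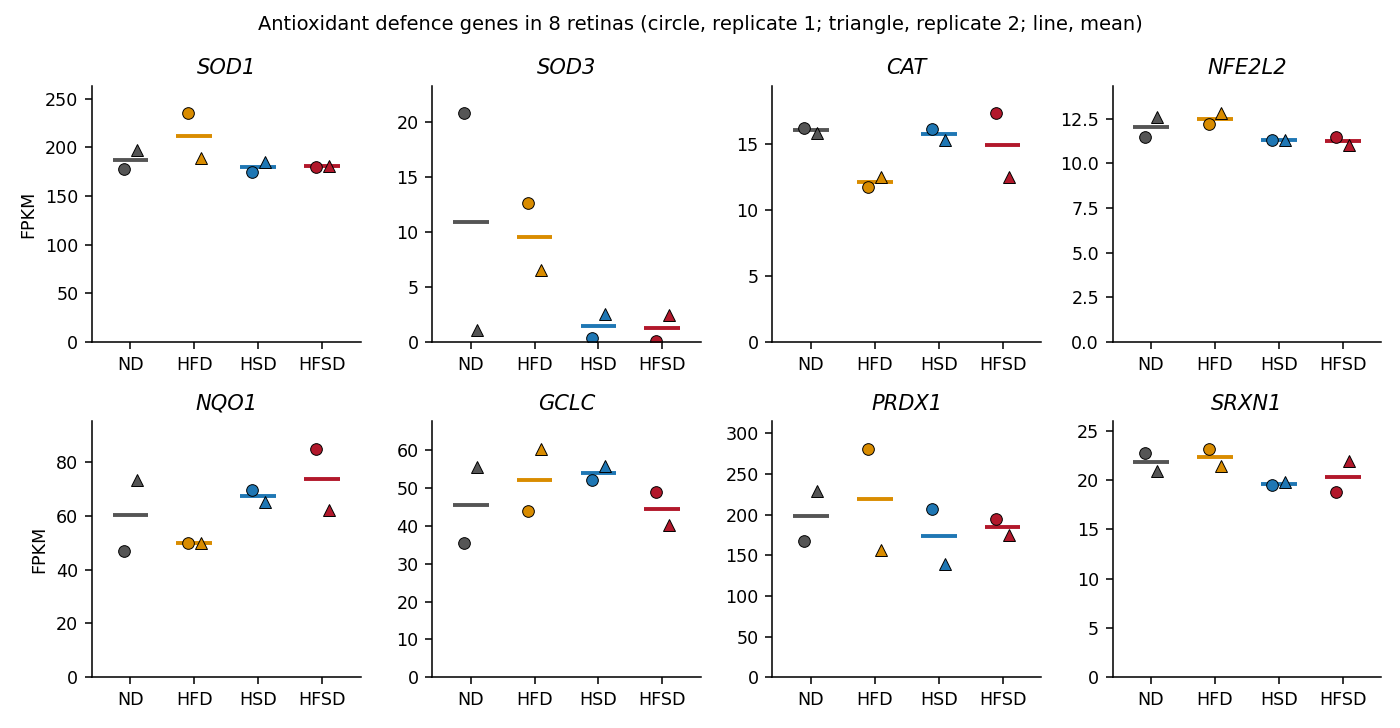
FPKM (linear axes from 0) of the 8 members in every retina by diet, with circles for replicate 1, triangles for replicate 2 and a line at the mean of the 2 retinas. SOD3 ran from 0.119 FPKM in HFSD replicate 1 to 20.8 in ND replicate 1, with ND replicate 2 at 1.08, while NFE2L2 stayed between 11.0 and 12.8 FPKM in all 8.

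The members spanned a wide range of levels. PRDX1 averaged 194 ± 45.1 FPKM (s.d. over 8 retinas) and SOD1 190.1 ± 19.3 FPKM, and these did not differ beyond their spread, since PRDX1 lay above SOD1 in 4 of 8 retinas. Both genes lay above 96.7% of tested genes. NQO1 followed at 62.7 ± 13.3 FPKM and GCLC at 49.0 ± 8.53 FPKM, with NQO1 the higher in 7 of 8 retinas. SRXN1 (21.0 ± 1.57 FPKM) lay above CAT in all 8 retinas, CAT (14.7 ± 2.11 FPKM) above NFE2L2 in 6, and NFE2L2 (11.8 ± 0.674 FPKM) above SOD3 in 6. SOD3 averaged 5.8 ± 7.35 FPKM, higher than 17.0% of tested genes.

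SOD1, the copper and zinc superoxide dismutase of the cytosol, measured 178 and 197 FPKM in ND, 235 and 189 on HFD, 175 and 185 on HSD, and 180.3 and 181 on HFSD. HFD replicate 1 stood above the other 7 retinas, which lay between 175 and 197 FPKM. The diets overlapped in each comparison. Differences of log2(FPKM + 1) from ND were 0.17 in HFD (95% interval -0.15 to 0.49, limma adjusted p = 0.998), -0.056 in HSD (-0.37 to 0.26, adjusted p = 0.947) and -0.051 in HFSD (-0.37 to 0.27, adjusted p = 0.94). With 1 library left out at a time, the HFD difference ran from 0.016 to 0.33. The difference between diets with and without sucrose was -0.14 (-0.36 to 0.085, adjusted p = 0.463).

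SOD3, the secreted superoxide dismutase that binds to the extracellular matrix and vessel walls, varied more than any other member. Its levels were 20.8 and 1.08 FPKM in ND, 12.6 and 6.56 on HFD, 0.345 and 2.52 on HSD, and 0.119 and 2.41 on HFSD. These values rest on few fragments at the low end, with 299 and 14 fragments in ND, 185 and 88 on HFD, 4 and 32 on HSD, and 2 and 28 on HFSD. The 95% Poisson interval, which covers counting error only, was 18.5 to 23.3 FPKM for ND replicate 1 and 0.588 to 1.8 FPKM for ND replicate 2, so the 2 ND retinas lay 19.3 times apart in level. The 4 retinas without sucrose averaged 10.3 ± 8.46 FPKM and the 4 with sucrose 1.35 ± 1.3 FPKM. The 2 sets overlapped, because ND replicate 2 lay below HSD replicate 2 and HFSD replicate 2.

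On the log2(FPKM + 1) scale, SOD3 differed by -2.00 between diets with and without sucrose (95% interval -3.78 to -0.23, adjusted p = 0.234 by limma). With voom on fragments, where no pseudocount of 1 FPKM enters, it was -3.18 for sucrose and -3.23 in HFSD, also not called. The differences from ND were 0.59 in HFD (-1.92 to 3.10, adjusted p = 0.998), -1.63 in HSD (-4.14 to 0.88, adjusted p = 0.787) and -1.78 in HFSD (-4.29 to 0.73, adjusted p = 0.698). For fat the difference was 0.22 (-1.56 to 1.99), and the interaction was -0.75 (-4.30 to 2.80). Leaving out ND replicate 1 brought the HSD difference to 0.069 and the HFSD difference to -0.086, and leaving out ND replicate 2 brought them to -3.32 and -3.48. The sucrose difference was -1.15 without ND replicate 1 and -2.85 (adjusted p = 0.0887) without ND replicate 2, the lowest adjusted p that any alternative gave for a member.

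The study selected genes by a fold rule with no test, in which the FPKM of a diet plus 1 is divided by the FPKM of ND plus 1. It was applied here to the mean of the 2 retinas of a diet, a choice that the study's methods do not spell out. By this rule SOD3 was the only member past a limit. Its ratio was 0.204 in HSD and 0.19 in HFSD, below the lower limit of 0.65, and 0.887 in HFD. Of 19293 protein-coding genes, 1.76% passed the rule in HFD, where 0 of 8 members did. In HSD 3.95% and in HFSD 3.43% of these genes passed, and 1 of 8 members in each. Without ND replicate 1 the SOD3 ratios were 1.17 in HSD, 1.09 in HFSD and 5.1 in HFD, and without ND replicate 2 they were 0.112, 0.104 and 0.486. Without ND replicate 2, NQO1 also passed the upper limit in HFSD, at 1.55, and without HFD replicate 1 SOD3 passed the lower limit in HFD, at 0.633.

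The summed markers of endothelium, myelin and astrocytes were, like SOD3, highest in ND replicate 1. In the rabbit retina, vessels, astrocytes and myelinated fibres lie together in bands beside the optic disc. All 7 endothelial markers were in the table, and their sum was 41.5 and 3.3 FPKM in ND, 27.4 and 11.9 on HFD, 5.24 and 6.87 on HSD, and 4.38 and 12.4 on HFSD. CDH5 and VWF, which define endothelium, were at 0 in HSD replicate 1 and HFSD replicate 1, the retinas with the 2 lowest SOD3 levels, and PECAM1 was at 0 in HSD replicate 1. EMCN was at 0 in these 2 libraries and in ND replicate 2. ESAM did not share this pattern, at 3.59 and 2.12 FPKM in ND, 2.97 and 2.73 on HFD, 4.02 and 3.2 on HSD, and 3.82 and 3.66 on HFSD, and it made up most of the endothelial sum in HSD replicate 1 and HFSD replicate 1. The 6 myelin markers summed to 699 and 95.7 FPKM in ND, 467 and 341 on HFD, 58.6 and 45.4 on HSD, and 61.0 and 154 on HFSD. The 4 astrocyte markers summed to 1114 and 379.5 FPKM in ND, 961 and 604 on HFD, 476 and 234 on HSD, and 328 and 458 on HFSD. In each of these lists, as for SOD3, ND replicate 2 lay below both HFD libraries. The lists did not follow SOD3 in every respect. Within HSD the astrocyte and myelin sums were the lower in replicate 2, where SOD3 was the higher. Among astrocyte markers GFAP shared the order of SOD3 in ND and HFD, at 524 and 12.1 FPKM in ND and 216 and 203 on HFD, but S100B was highest in HFD replicate 1, at 738 FPKM, and ALDH1L1 lay between 2.73 and 5.84 FPKM throughout. The mural cell markers, with 7 of 8 in the table, summed to 18.8 and 6.78 FPKM in ND, 9.65 and 13.8 on HFD, 3.85 and 24.2 on HSD, and 5.79 and 8.22 on HFSD. In HSD replicate 2, the library with skeletal muscle RNA, 15.8 FPKM of this sum came from DES, which muscle fibres also express. The remaining mural markers did not move alike. PDGFRB lay between 2.11 and 4.35 FPKM in all 8 libraries, NOTCH3 (3.19 FPKM) and ACTA2 (2.72 FPKM) were highest in HFD replicate 2, and RGS5, MYH11 and CSPG4 in ND replicate 1. RGS5, a marker of pericytes, measured 8.97 and 0.184 FPKM in ND, 3.58 and 3.38 on HFD, 0 and 1.32 on HSD, and 0.0475 and 2.27 on HFSD. The part of these cells in the SOD3 values was not tested. In RNA of dissected retinas, unequal tissue content, fewer cells of a type and less RNA per cell cannot be told apart.

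**Figure D2:**
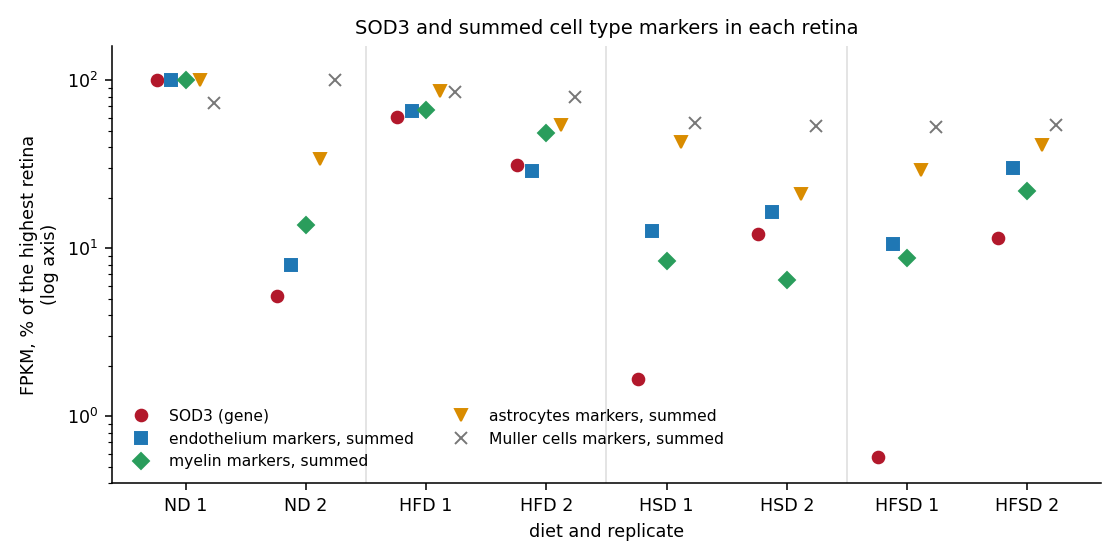
SOD3 and the summed markers of endothelium, myelin, astrocytes and Müller cells in each retina, as a percentage of the highest retina of each (log axis). SOD3, endothelium, myelin and astrocytes were all highest in ND replicate 1, and SOD3 was lowest in HFSD replicate 1 at 0.119 FPKM, where 2 fragments were counted.

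The 5 genes whose log2(FPKM + 1) followed SOD3 most closely over the 8 retinas were CADPS2 (Pearson r = 0.973), BGN (0.972), IGFBP2 (0.969), APLNR (0.966) and SPARCL1 (0.966). These correlations are a description over libraries that share the unequal tissue content given above. APLNR, the receptor of apelin, is an endothelial gene and measured 10.6 FPKM in ND replicate 1 and 4.6 and 2.4 FPKM in HFD. It lay at 0 in ND replicate 2, HSD replicate 1 and HFSD replicate 1. BGN, a proteoglycan of the extracellular matrix, measured 4.06 and 0.255 FPKM in ND and was at 0 in HSD replicate 1 and HFSD replicate 1. SPARCL1, a matrix-associated glycoprotein, measured 283 and 24.0 FPKM in ND and 14.9 FPKM in HFSD replicate 1. CADPS2, the closest gene, stayed between 0.765 and 1.61 FPKM in all 8 retinas. IGFBP2 measured 18.3 and 4.8 FPKM in ND and 3.23 FPKM in HFSD replicate 1.

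CAT, the peroxisomal enzyme that splits hydrogen peroxide, was lower in HFD than in ND, with no overlap. It measured 16.2 and 15.8 FPKM in ND, 11.7 and 12.5 on HFD, 16.1 and 15.3 on HSD, and 17.3 and 12.5 on HFSD. Both HFD retinas and HFSD replicate 2 lay at or below 12.5 FPKM, and the other 5 at or above 15.3 FPKM. The HFD mean was 12.1 ± 0.576 FPKM and the ND mean 16.0 ± 0.27 FPKM (s.d., n = 2 each). The log2 difference was -0.38 (SE 0.155, 95% interval -0.74 to -0.021, adjusted p = 0.998 by limma). Groups of 2 against 2 did not overlap, with HFD the lower, for 13.3% of all tested genes in this comparison, and CAT was 1 such member of 8. The 2 HFSD retinas lay on either side, and the difference from ND there was -0.12 (-0.48 to 0.25, adjusted p = 0.875). For fat as a whole the CAT difference was -0.23 (-0.49 to 0.022, adjusted p = 1.0).

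**Figure D3:**
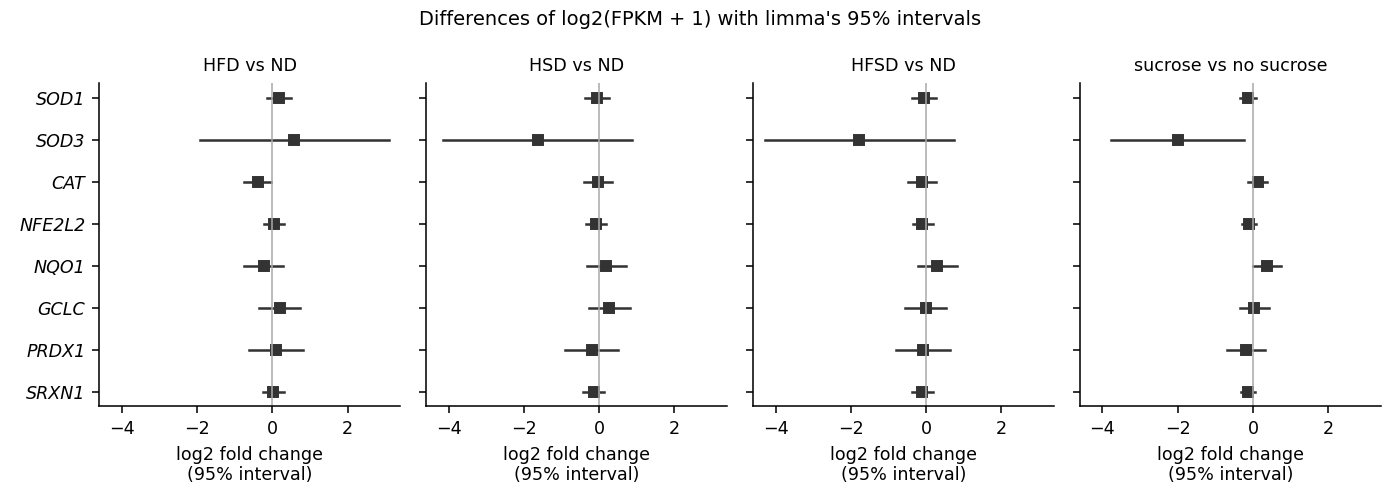
Differences of log2(FPKM + 1) (squares) with the 95% intervals of limma (lines) for the 8 members in HFD, HSD and HFSD against ND and in diets with against without sucrose. The intervals of SOD3 were the widest, from -1.92 to 3.10 in HFD, and those of CAT in HFD (-0.74 to -0.021) and SOD3 for sucrose (-3.78 to -0.23) left out 0.

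PRDX1, a thiol peroxidase of the cytosol, measured 167 and 229 FPKM in ND, 281 and 157 on HFD, 207 and 139.6 on HSD, and 195 and 175 on HFSD. The highest and the lowest retina lay 2.01 times apart, and the 2 retinas of a diet differed beyond their Poisson intervals in all 4 diets. The differences from ND were 0.11 in HFD (95% interval -0.61 to 0.82, limma adjusted p = 0.998), -0.20 in HSD (-0.92 to 0.51, adjusted p = 0.915) and -0.084 in HFSD (-0.80 to 0.63, adjusted p = 0.958). Each of these intervals holds 0 and reaches well to either side of it.

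SRXN1, sulfiredoxin, which restores peroxiredoxins that have been overoxidised, was among the steadier members. It measured 22.8 and 20.9 FPKM in ND, 23.2 and 21.4 on HFD, 19.5 and 19.8 on HSD, and 18.8 and 21.9 on HFSD, on 190 to 286 fragments. Both HSD retinas lay below both ND retinas, as for 19.7% of all tested genes in that comparison. The difference was -0.14 in HSD (95% interval -0.42 to 0.14, limma adjusted p = 0.826) and -0.13 for sucrose (-0.33 to 0.062, adjusted p = 0.42).

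NFE2L2 had the narrowest range of the 8 members. It measured 11.5 and 12.6 FPKM in ND, 12.2 and 12.8 on HFD, 11.3 and 11.3 on HSD, and 11.5 and 11.0 on HFSD, on 1375 to 2082 fragments. The 4 retinas with sucrose (11.3 ± 0.221 FPKM) all lay below the 4 without (12.3 ± 0.556 FPKM). This was the only member whose sucrose arms did not overlap, against 6.48% of all tested genes that were lower in this way. The log2 difference was -0.12 (95% interval -0.30 to 0.070, adjusted p = 0.463 by limma). Against ND it was 0.046 in HFD (-0.22 to 0.31), -0.088 in HSD (-0.35 to 0.17) and -0.10 in HFSD (-0.36 to 0.17). Both HSD and both HFSD retinas lay below both ND retinas, as for 19.7% and 20.6% of all tested genes, although HFSD replicate 1 and ND replicate 1 both round to 11.5 FPKM.

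NQO1, a quinone reductase used as a readout of NRF2 activity, measured 47.0 and 73.2 FPKM in ND, 49.9 and 49.8 on HFD, 69.6 and 65.1 on HSD, and 84.9 and 62.2 on HFSD. Retinas with sucrose averaged 70.5 ± 10.1 FPKM and those without 55.0 ± 12.2 FPKM (s.d., n = 4 each). ND replicate 2, at 73.2 FPKM, lay above 3 of the 4 retinas with sucrose, and the other 3 without sucrose lay below all 4. The sucrose difference was 0.37 on the log2(FPKM + 1) scale (95% interval -0.00066 to 0.73, adjusted p = 0.273 by limma). The differences from ND were -0.23 in HFD (-0.75 to 0.29, adjusted p = 0.998), 0.19 in HSD (-0.32 to 0.71, adjusted p = 0.874) and 0.30 in HFSD (-0.21 to 0.82, adjusted p = 0.769).

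GCLC, the catalytic subunit of the enzyme that limits glutathione synthesis, measured 35.6 and 55.5 FPKM in ND, 44.0 and 60.4 on HFD, 52.0 and 55.8 on HSD, and 49.0 and 40.1 on HFSD. The 2 ND retinas lay 1.56 times apart, as they did for NQO1, and held the lowest of the 8 values and the third highest. The differences from ND were 0.21 in HFD (95% interval -0.34 to 0.75, limma adjusted p = 0.998), 0.27 in HSD (-0.28 to 0.82, adjusted p = 0.83) and -0.0062 in HFSD (-0.55 to 0.54, adjusted p = 0.997). The interaction of fat and sucrose was -0.49 (-1.26 to 0.29, adjusted p = 0.999). With 1 library left out at a time, this interaction ran from -0.80 to -0.17.

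Without regard to any test, 6 of 8 members were higher in HFD than in ND, 2 in HSD and 1 in HFSD, where 51.2%, 49.5% and 49.2% of all tested genes were higher. The other members were lower. Leaving out 1 library moved these counts: 3 of 8 were higher in HFD without ND replicate 1, and 4 of 8 in HSD and 4 of 8 in HFSD without ND replicate 2. The median log2 difference was 0.075 on HFD, -0.072 on HSD and -0.09 on HFSD, against medians of 0.0063, -0.0018 and -0.004 over all tested genes. With 1 library left out at a time it ran from -0.059 (without ND replicate 1) to 0.094 on HFD, from -0.10 to -0.0053 (without ND replicate 2) on HSD and from -0.14 to -0.0066 (without ND replicate 2) on HFSD. With scaling to summed fragments it was -0.037 on HSD and -0.058 on HFSD, where the medians over all tested genes were 0.031 and 0.026. The 3 comparisons share the ND retinas, so these counts are not independent of each other. With fat, 5 members were higher and 3 lower, where 52.6% of all tested genes were higher, and with sucrose 3 were higher and 5 lower, where 51.3% of all tested genes were lower. The median for fat was 0.028. Without ND replicate 1, 3 members were higher with fat and 5 lower, with a median of -0.0063. By voom, 4 were higher with fat and 4 lower, with a median of -0.015.

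The 2 retinas of 1 diet often differed by more than counting error. The 95% Poisson intervals of the 2 retinas lay apart in 16 of 32 pairs of member and diet, for 5 of 8 members on ND, 4 on HFD, 2 on HSD and 5 on HFSD. For NFE2L2 and SRXN1 they overlapped in every diet, and for SOD3 and PRDX1 in none. The within-diet s.d. of log2(FPKM + 1) was 1.45 for SOD3, larger than in 99.7% of tested genes, 0.392 for PRDX1 (91.0%), 0.291 for GCLC (81.7%) and 0.274 for NQO1 (79.5%). It was 0.158 for CAT, 0.124 for SOD1, 0.0932 for SRXN1 and 0.0526 for NFE2L2, the last larger than in only 2.88% of tested genes, with a median over all of 0.167.

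**Figure D4:**
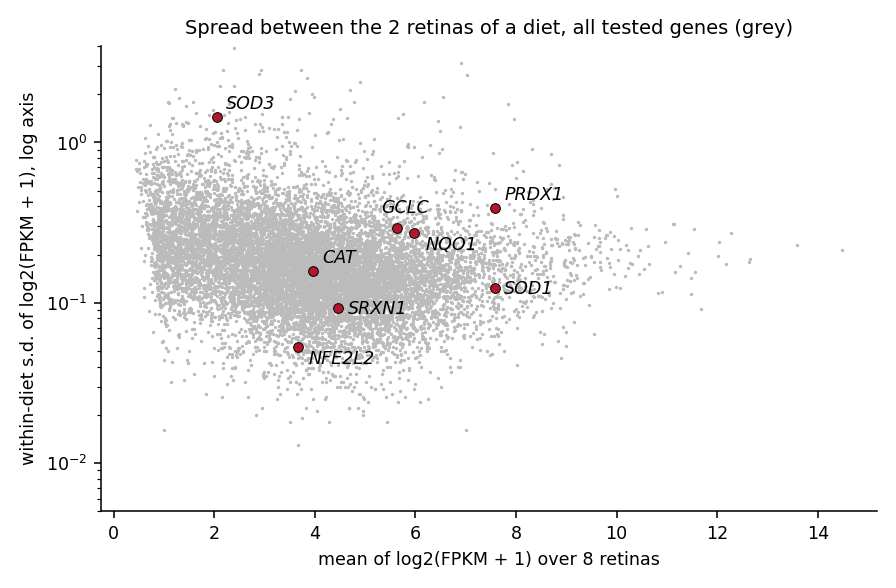
Within-diet s.d. of log2(FPKM + 1) (log axis) against its mean over 8 retinas for the tested genes (grey) and the 8 members (red). SOD3, at 1.45, lay near the top of the genes of its level, and NFE2L2, at 0.0526, near the bottom.

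The members were set beside 109 other genes in 9 lists, 8 of antioxidant defence and its control and 1 of 14 genes that produce oxidants. The 8 lists also hold genes that act against this defence, such as KEAP1, BACH1, CHAC1 and CHAC2. For sucrose these differed by -0.15, 0.19, 0.21 and 0.25, and they were counted like the rest. A lower gene of these lists therefore does not always mean less defence. Of the 109 genes 75 were in the table and 61 passed the filter, 5 of them oxidant producers. None of the 61 was called by limma in the model of 4 diets, or by voom, in any of the 6 comparisons. In the diets with sucrose 47 of the 61 were lower than in those without (77%), against 51.3% of all tested genes, with a median log2 difference of -0.11 against -0.0073. At an unadjusted p under 0.05, 15 were lower and 1 higher, against 9.16% lower and 9.17% higher of all tested genes. Oxidant producers made up 2 of the 47 and 1 of the 15. Leaving out 1 library at a time, between 40 and 48 were lower and the median ran from -0.14 to -0.047, the latter without ND replicate 2. Without HFD replicate 1 it was -0.059.

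The mean sums of several cell type markers also differed between diets with and without sucrose. The summed markers of Müller cells, which hold much of the glutathione of the retina, were lower with sucrose, at 3343, 4537, 3877 and 3595 FPKM in ND and HFD and 2521, 2433, 2403 and 2467 FPKM in HSD and HFSD. All 7 markers of that list were in the table, but they did not move alike. GLUL lay between 1489 and 2127 FPKM without sucrose and between 722 and 889.7 with it, and RLBP1 and CLU were lower in all 4 retinas with sucrose. SLC1A3 lay between 179.5 and 203 FPKM without sucrose and between 185 and 191 with it, KCNJ10 between 38.5 and 49.7 and between 39.4 and 47.4, and VIM and AQP4 overlapped as well. The mean sum of the 4 astrocyte markers was 765 FPKM without and 374 FPKM with sucrose, and that of the 6 myelin markers 401 and 79.7 FPKM. Both of these sums overlapped, since ND replicate 2 (379.5 and 95.7 FPKM) lay below HFSD replicate 2 (458 and 154 FPKM). Cone markers, with 6 of 7 in the table, had a mean sum of 864 FPKM without and 1277 FPKM with sucrose, though GNGT2 and CNGB3 overlapped. The sum of the 8 pigment epithelium markers was lower than ND in HFD as well as in the diets with sucrose, though RGR and BEST1 overlapped between ND and HFD, with sums of 448 and 449 FPKM in ND, 222 and 260.2 on HFD, 193 and 122 on HSD, and 164 and 106 on HFSD. The part of these cells in the values of the wider lists was not tested.

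SLC3A2 had the lowest adjusted p of the wider lists for sucrose. It encodes the heavy chain of amino acid transporters, among them the cystine importer, and measured 54.9 and 64.0 FPKM in ND, 65.1 and 60.0 on HFD, 44.6 and 45.3 on HSD, and 45.1 and 45.2 on HFSD. The 2 sets did not overlap, and 6.48% of all tested genes were lower with sucrose in this way. The difference was -0.43 (95% interval -0.61 to -0.24, adjusted p = 0.0877 by limma), and with the 8 libraries in 2 groups of 4 in place of 4 diets it was called, at an adjusted p of 0.0336, in a fit that called 141 of 12204 genes against 42 in the model of 4 diets. EPHX1, the microsomal epoxide hydrolase and an NRF2 target, measured 10.5 and 11.0 FPKM in ND, 12.2 and 9.07 on HFD, 6.06 and 6.29 on HSD, and 5.22 and 7.43 on HFSD. It differed by -0.69 for sucrose (-1.01 to -0.38, adjusted p = 0.0916) and was called in the same fit of 2 groups. SLC3A2 is named for its lowest adjusted p and for that call, after its values were seen.

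Of all tested genes, 51.3% were lower with sucrose and 9.16% were so at an unadjusted p under 0.05, and each single list stands against these shares with few genes. Of 13 tested genes of glutathione synthesis and recycling, 9 were lower and 4 higher with sucrose, 3 of the lower ones at an unadjusted p under 0.05. GSS, the enzyme of the second step of glutathione synthesis, measured 18.4 and 22.0 FPKM in ND and 14.1 and 14.9 in HSD, a difference of -0.45 (adjusted p = 0.485 by limma). SLC7A11, the light chain of the cystine importer, went the other way, at 4.61 and 5.71 FPKM in ND and 6.89 and 9.63 in HSD (0.58, adjusted p = 0.675) and at 6.16 and 8.26 in HFSD (0.41, adjusted p = 0.684). CHAC2, which degrades glutathione, measured 5.39 and 5.27 FPKM in ND and 8.82 and 6.09 in HFSD (0.40, adjusted p = 0.633). CHAC1, an enzyme of the same kind, was lower in HFD, at 0.704 and 0.802 FPKM against 1.05 and 1.04 in ND (-0.22, adjusted p = 0.998).

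Of 9 tested glutathione transferases, 8 were lower with sucrose, 2 of them at an unadjusted p under 0.05. GSTO2 differed from ND by -0.36 in HFD, at 0.759 and 1.33 FPKM (adjusted p = 0.998 by limma), and by -0.89 in HFSD, at 0.488 and 0.32 FPKM (adjusted p = 0.545). GSTO1 differed by 0.35 in HFD, at 46.1 and 48.1 FPKM against 35.4 and 38.3 in ND (adjusted p = 0.998 by limma). GSTA4, which clears the lipid peroxidation product hydroxynonenal, differed by 0.27 in HFSD, at 22.9 and 28.8 FPKM against 21.1 and 21.0 (adjusted p = 0.649).

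All 9 tested genes of the thioredoxin and glutaredoxin list were lower with sucrose, with a median of -0.12 and 2 at an unadjusted p under 0.05. GLRX5, a mitochondrial glutaredoxin of iron-sulfur cluster assembly, had the largest positive difference in HFD among the wider genes with no overlap, at 223 and 172 FPKM against 122 and 84.5 in ND (0.94, adjusted p = 0.998 by limma). The 4 tested genes of superoxide and peroxide removal were all lower with sucrose, with a median of -0.22 and 2 at an unadjusted p under 0.05. The 2 tested peroxiredoxins lay on either side of 0, with a median of -0.024.

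Of the 6 tested regulators of NRF2, 4 were lower and 2 higher with sucrose, and 1 in each direction had an unadjusted p under 0.05. BACH1, a repressor at the sites that NRF2 binds, measured 7.46 and 8.6 FPKM in HFD and 9.19 and 8.93 in ND (-0.16, adjusted p = 0.998 by limma). Of 12 tested NRF2 targets, 9 were lower and 3 higher with sucrose, with a median of -0.064, and 3 of the lower ones had an unadjusted p under 0.05. Among these targets EPHX1 differed from ND by -0.71 in HSD (adjusted p = 0.438) and -0.70 in HFSD (adjusted p = 0.43).

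MT3, the only metallothionein tested, measured 476 and 467 FPKM in ND, 732 and 604 on HFD, 416 and 275 on HSD, and 405 and 379 on HFSD. This metal-binding protein is abundant in neural tissue, and its values lay above ND in both HFD retinas and below it in all 4 retinas with sucrose. Both retinas of a diet lay below both ND retinas for 19.7% of all tested genes in HSD and 20.6% in HFSD. The differences from ND were 0.49 in HFD (adjusted p = 0.998 by limma) and -0.48 in HSD (adjusted p = 0.702). Of 5 tested genes that produce oxidants, 3 were higher and 2 lower with sucrose. AOX1, aldehyde oxidase, measured 0.961 and 2.48 FPKM in HSD against 0.719 and 0.684 in ND (0.62, adjusted p = 0.776 by limma). The higher HSD value came from replicate 2, the library with skeletal muscle RNA, and HFSD gave 1.51 and 0.329 FPKM. MAOB, monoamine oxidase B, which yields hydrogen peroxide, measured 1.5 and 2.34 FPKM in HFSD against 4.58 and 3.15 in ND (-0.74, adjusted p = 0.512).

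**Figure D5:**
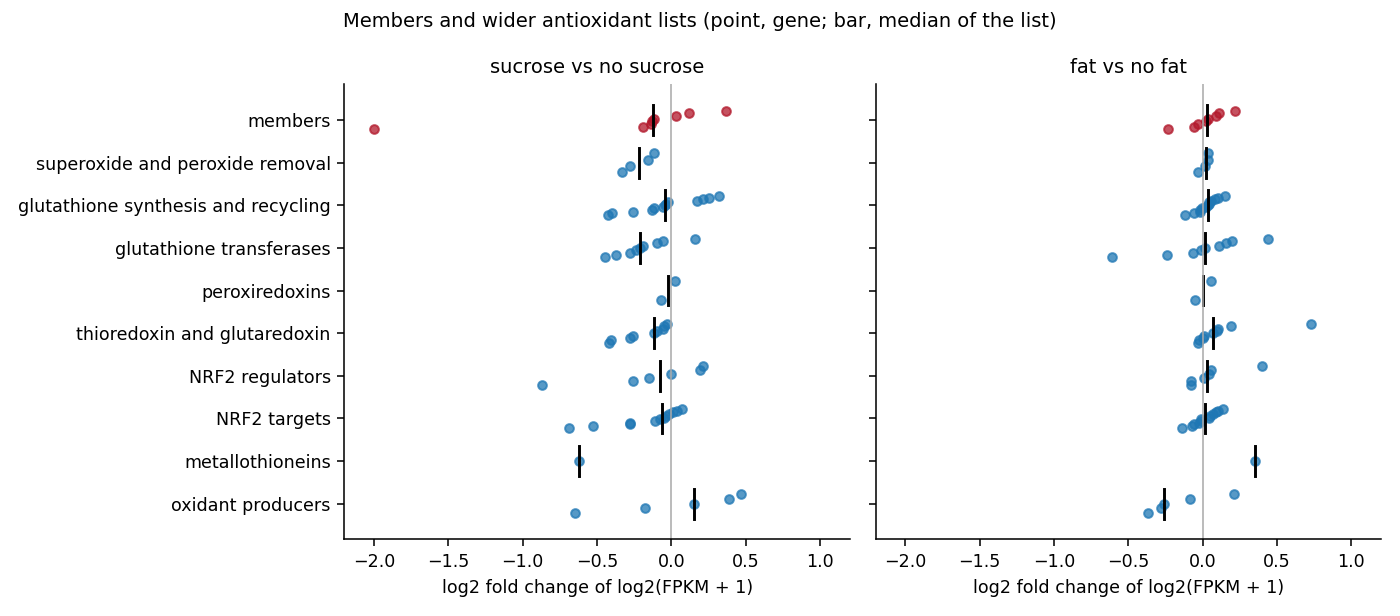
Log2 differences (log2(FPKM + 1) scale) of each tested gene (points) in the members and the 9 wider lists, with the median of each list as a bar, for diets with against without sucrose and with against without fat. With sucrose 47 of the 61 wider genes lay to the left of 0, and with fat 26 did.

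With fat, 35 of 61 wider genes were higher and 26 lower, where 52.6% of all tested genes were higher, with a median of 0.021 against 0.0072 over all tested genes, and 1 in each direction had an unadjusted p under 0.05. With 1 library left out that median ran from 0.0028 (without HFD replicate 1) to 0.058 (without HFD replicate 2). In HFD against ND 39 were higher and 22 lower, in HSD 20 and 41, and in HFSD 22 and 39, with medians of 0.064, -0.062 and -0.077 against 0.0063, -0.0018 and -0.004 over all tested genes. Of all tested genes 51.2%, 49.5% and 49.2% were higher. With scaling to summed fragments the HSD counts were 25 higher and 36 lower, with a median of -0.026 against 0.031 over all tested genes, and with voom the HFSD counts were 25 and 36, with a median of -0.037 against 0.0279. Without HFD replicate 1 the HFD counts were 30 higher and 31 lower, with a median of -0.011, and without ND replicate 2 the HSD counts were 29 and 32, with a median of -0.0096, and the HFSD counts 25 and 36, with a median of -0.032. The interaction was higher than 0 for 23 of the 61 genes and lower for 38, with a median of -0.052 against 0.011 over all tested genes. With 1 library left out at a time, that median ran from -0.13 to -0.0028. The interaction had 0 of 61 genes at an unadjusted p under 0.05, against 3.74% of all tested genes. With no filter it had 3 of 73, against 678 of all 16404 genes.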

How the data were processed

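RNA of 8 retinas was sequenced by the authors. Per the study's methods, read quality was assessed with FastQC, reads were trimmed and mapped to the rabbit genome with TopHat2 with up to 2 mismatches, reads mapping to several places were discarded, and FPKM per gene was computed with an R script. The deposited values are these FPKM per library, not counts. The genome build, annotation and total read numbers are not given in the sources used here, so no coordinates are printed. Diets were taken from the sample titles. No value column lacked a sample (0 columns). A gene with a near-identical copy elsewhere would be undercounted, which was not tested.

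The test was limma 3.58.1 in R 4.3.3 on log2(FPKM + 1) with trended, moderated variances, in 1 model of 4 diets and 8 libraries. It ran on the 12204 protein-coding genes that reached 1 FPKM in 2 or more libraries, with Benjamini-Hochberg adjustment over all of them, and calls have an adjusted p under 0.05. A pseudocount of 1 understates the change of low genes. Fragments were recovered from the steps of the FPKM values (100% of values above 0 whole within 0.01 fragments). They served the Poisson intervals, at 95%, and voom. The recovery of fragments and the limma test, but not voom or the intervals, were tested on simulated data.

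The members and lists were chosen with earlier results of these data known. All members are named. Of the wider lists, genes with an adjusted p under 0.05 are named and, for each diet, the 3 largest rises and the 3 largest falls among genes whose 2 retinas lay beyond both ND retinas. 1 gene that this rule names is not reported here. For members past a fold limit, the 5 closest genes are named. Alternatives were another pseudocount (0.1), no filter or a filter of 5 FPKM, no trend, robust moderation, 2 scalings, voom, the replicate number as a block, fits of fewer libraries or groups, and each library left out. No sequences are printed.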

Additional observations from a re-analysis of the deposited data

How the results depend on the processing

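No member was called under any of the alternatives tried. The 2-group fit of 4 against 4 libraries called 2 wider genes for sucrose (SLC3A2 and EPHX1), against 0 in the model of 4 diets (141 against 42 over all 12204 genes), and was the only alternative that called any wider gene. The number of members past the fold limits with 1 library left out ran from 0 to 1 in HFD, 0 to 1 in HSD and 0 to 2 in HFSD. With all libraries kept, the signs that reversed were those of CAT in HSD at 0.0039 both with scaling to summed fragments and with voom, GCLC in HFSD at 0.026 and 0.027 under the same alternatives, and SOD3 for fat at -0.05 with voom. The cause was not tested. With scaling to summed fragments 42 of 61 wider genes were lower with sucrose, at a median of -0.069, and 12 of these at an unadjusted p under 0.05, while 5399 of all 12204 genes were lower, at a median of 0.0296, and 893 of these at such a p. Of the alternatives that kept all libraries, voom gave the largest SOD3 differences for sucrose (-3.18) and in HFSD (-3.23).

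Leaving out 1 library at a time, the sign was not kept by the following log2 differences. In HFD these were GCLC (-0.10 to 0.52), NFE2L2 (-0.014 to 0.11), NQO1 (-0.54 to 0.083), PRDX1 (-0.31 to 0.52), SOD3 (-1.10 to 2.29) and SRXN1 (-0.03 to 0.091). In HSD they were CAT (-0.067 to 0.0056), GCLC (-0.042 to 0.58), NQO1 (-0.12 to 0.51), PRDX1 (-0.48 to 0.081), SOD1 (-0.13 to 0.018) and SOD3 (-3.32 to 0.069). In HFSD they were CAT (-0.33 to 0.10), GCLC (-0.32 to 0.31), NQO1 (-0.009 to 0.62), PRDX1 (-0.31 to 0.14), SOD1 (-0.12 to 0.023) and SRXN1 (-0.20 to 0.0045). For fat they were GCLC (-0.19 to 0.12), NFE2L2 (-0.011 to 0.049), NQO1 (-0.22 to 0.10), PRDX1 (-0.10 to 0.32), SOD3 (-0.63 to 1.07) and SRXN1 (-0.014 to 0.088). For the interaction they were NFE2L2 (-0.11 to 0.006), PRDX1 (-0.40 to 0.43), SOD3 (-2.44 to 0.95) and SRXN1 (-0.089 to 0.12), and for sucrose GCLC (-0.13 to 0.18) and PRDX1 (-0.40 to 0.013). A diet left with 1 library was assumed to vary like the others.

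Over all genes, calls ranged over the alternatives from 1 to 2 in HFD (1 as reported), 2 to 12 in HSD (7), 0 to 11 in HFSD (2), 4 to 141 for sucrose (42), 0 to 3 for fat (1) and 0 to 6 for the interaction (1). For sucrose, 4 came without HSD replicate 2 and 141 from the fit of 2 groups. The replicate number as a block gave 1, 5, 4, 25, 1 and 0 calls in the same order and 0 calls among the members. Retinas with the same number shared only that number: their deviations correlated between -0.165 and 0.0813, above 0 in 2 of 6 pairs of diets. At this depth 1 fragment per kilobase was worth 0.0439 to 0.0634 FPKM, which limits SOD3, at 2 and 4 fragments in its lowest libraries.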
